A study of Mus musculus with 6 samples.

Results

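The subject here is a set of 8 transcription factor genes that set up and drive the oligodendrocyte lineage, the cells that make myelin in the brain. They are Olig1, Olig2, Sox8, Sox10, Nkx2-2, Nkx6-2, Myrf and Tcf7l2. They were picked by symbol, and all 8 were found among 35857 genes with a value in every library. Polyadenylated RNA was sequenced from cerebral cortex taken on postnatal day 7 from C57BL/6 mice. The 3 knockout brains were labelled Qk-/- and the 3 control brains wild type, and no other allele, treatment or age was labelled in either group. The labels name neither the exons of Qk that were removed nor the cells in which they were removed. The study concerns quaking, the RNA-binding protein of glia and their progenitors that Qk encodes, and the turn of neural stem cells to making glia.

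In the mouse, OLIG2 and OLIG1 are basic helix-loop-helix factors that commit neural progenitors to the lineage and stay on in precursors. SOX10 and SOX8 are related HMG-box factors that mark the lineage, and SOX10 acts with MYRF to switch on myelin genes once a cell stops dividing. NKX2-2, NKX6-2 and TCF7L2 are factors of precursors about to mature, of myelinating cells and of newly formed cells.

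Olig2 (Entrez 50913) and Olig1 (50914) are neighbours on the plus strand of chromosome 16. In GRCm38 Olig2 runs from 91225457 to 91228677 and Olig1 from 91269772 to 91271933, with 41094 bases between them. Sox8 lies at 25565892 to 25570686 on the minus strand of chromosome 17, and Sox10 at 79154908 to 79165240 on the minus strand of chromosome 15. Nkx2-2 lies at 147177546 to 147194243 on chromosome 2 and Nkx6-2 at 139579376 to 139582797 on chromosome 7, both on the minus strand. Myrf (10208272 to 10240748, minus strand) and Tcf7l2 (55741820 to 55933654, plus strand) are both on chromosome 19.

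Since quaking binds RNA at ACTAAC or, by a looser rule, ACTAAT (each with U for T in RNA), the sense strand of the longest annotated 3′ UTR of each gene was searched for them. Olig2 and Sox8 had 1 match each, both to ACTAAC, and the other 6 members had 0. Of 13782 tested genes with an annotated 3′ UTR, 34.6% held either hexamer and 19.5% held ACTAAC. The Olig2 match began at base 322 of a 3′ UTR of 1306 bases, and the Sox8 match at base 1012 of 1441. The 30-base windows around them, with the hexamer in capitals, are shown because no other member holds a match. They are in GRCm38, from GENCODE M21, on the strand of the gene.
Olig2, chr16:91227681-91227710, plus strand: ggaagtctaaaaACTAACtttccggtgtac
Sox8, chr17:25566304-25566333, minus strand: agagcctccccaACTAACctgcttaggttc

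A match is a description of the letters and not a measured binding site. RefSeq promoter windows of 300 bases (GRCm38.p6) were held for 5 of the 8 members: Olig2, Sox8, Nkx2-2, Nkx6-2 and Tcf7l2. Olig2, which rose, Nkx2-2, which had the largest difference without passing, and Sox8, whose interval spans 0, are printed. Both strands were searched for the E-box that basic helix-loop-helix factors bind (CANNTG), for TATAAA (the TATA box), for CCAAT and for ACAAAG (the SOX core). Capitals mark the first 3 of these.
Olig2, chr16:91225300-91225599, plus strand: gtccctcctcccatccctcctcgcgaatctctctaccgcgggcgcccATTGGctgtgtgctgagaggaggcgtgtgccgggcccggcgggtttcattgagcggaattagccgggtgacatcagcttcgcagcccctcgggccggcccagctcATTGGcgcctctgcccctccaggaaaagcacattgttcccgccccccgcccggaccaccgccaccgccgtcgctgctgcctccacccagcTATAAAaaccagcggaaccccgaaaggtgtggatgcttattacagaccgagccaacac
Nkx2-2, chr2:147186353-147186652, minus strand: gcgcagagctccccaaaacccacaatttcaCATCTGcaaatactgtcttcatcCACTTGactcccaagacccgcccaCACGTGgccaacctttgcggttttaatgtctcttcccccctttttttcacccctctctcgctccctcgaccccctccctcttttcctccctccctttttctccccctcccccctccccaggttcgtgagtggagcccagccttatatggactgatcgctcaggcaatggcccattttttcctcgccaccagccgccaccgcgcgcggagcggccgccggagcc
Sox8, chr17:25570637-25570936, minus strand: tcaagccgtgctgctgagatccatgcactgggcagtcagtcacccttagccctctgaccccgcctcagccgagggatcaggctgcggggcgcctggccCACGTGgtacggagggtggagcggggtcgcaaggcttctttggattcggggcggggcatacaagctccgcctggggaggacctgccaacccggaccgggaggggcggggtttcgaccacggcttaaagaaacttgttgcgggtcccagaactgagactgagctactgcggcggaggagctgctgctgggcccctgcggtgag

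The Olig2 window held 1 TATA box, 2 CCAAT boxes, seen as ATTGG on the printed strand, and 0 E-boxes. The Nkx2-2 window held 3 E-boxes and the Sox8 window 1, with 0 matches to the TATA and CCAAT boxes in both. None of the 3 windows held the SOX core, and no matches overlapped in them. Over all 32851 RefSeq windows, 72.3% held an E-box, 37.4% a CCAAT box, 13.6% a TATA box and 18.7% the SOX core.

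Expression was deposited as TPM, a transcript abundance corrected for gene length and scaled to the same total in every library, so that levels of different genes can be set side by side. TPM keeps no read number, so depth and counting error are unknown. Between 18971 and 19710 genes per library were above 0 TPM. Qk, the targeted gene, stood at 14.6, 15.2 and 15.4 TPM in knockout cortex, against 36.5, 43.2 and 41.3 TPM in control cortex, so the values went with the labels. Genes of a mean of at least 1 TPM were tested on log2(TPM + 1), where differences of low genes come out too small, with limma. Of 14994 genes tested, 15 rose (0.1%) and 43 fell (0.287%) at an adjusted p under 0.05, 0.387% in all. The median log2 difference of all 14994 tested genes was -0.03.

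Of the 8 transcription factors, 7 passed the filter on low values and 1, Nkx6-2, did not. Olig2 rose, none fell and 6 of the 7 were not called, while 0.1% of all tested genes rose, 0.287% fell and 0.387% did either. The 3 with an unadjusted p under 0.05 (Olig2, Olig1 and Nkx2-2) had positive differences, and 8.72% of all tested genes had such a p. The knockout values lay wholly above the control values for 2 of the 8, Olig2 and Olig1, and wholly below for 0. Among all tested genes 5.20% lay wholly above and 8.98% wholly below. The 7 differences ran from -0.20 for Sox10 to 0.70 for Nkx2-2 on the log2 scale, with a median of 0.09. In bulk tissue, more or fewer cells of a type and more or less RNA per cell cannot be told apart.

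**Figure D1:**
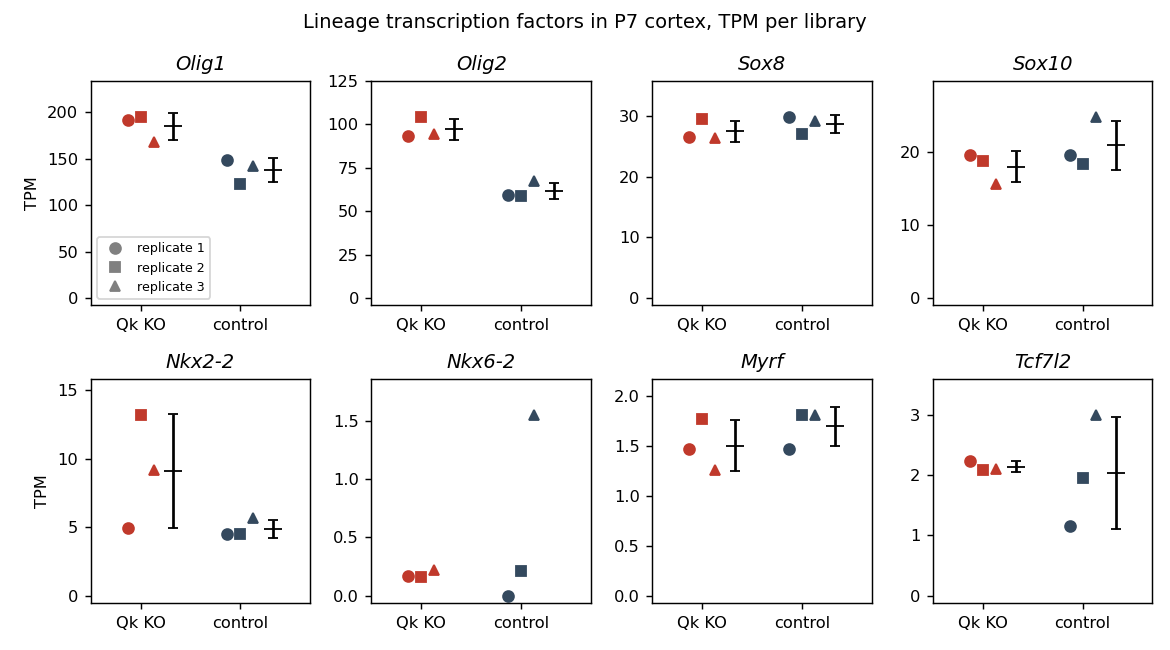
TPM of the 8 genes (vertical axes, linear, a scale for each gene) in the 3 Qk knockout libraries (red, left) and the 3 control libraries (dark, right). Marker shape gives the replicate number, and bars give mean and SD (n = 3), left out for Nkx6-2. Knockout points of Olig2 (93.2 to 104 TPM) and Olig1 (169 to 195 TPM) sit above all control points (58.9 to 67.2 and 123 to 148 TPM), while the other 6 genes overlap.

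Olig2 had 93.2, 104 and 94.5 TPM in knockout replicates 1, 2 and 3, against 59.4, 58.9 and 67.2 TPM in the same-numbered controls. The groups were far apart, with the highest control library well under the lowest knockout library. The means were 97.3 ± 6.01 TPM in knockout and 61.8 ± 4.64 TPM in control cortex (SD, n = 3 each), a ratio of 1.57. The log2 difference was 0.65 with a standard error of 0.0837 and a 95% interval of 0.46 to 0.84 (limma, adjusted p = 0.0152). When 1 library was left out, the difference stayed between 0.60 and 0.71. Olig2 then passed in 3 of the 6 fits and missed the threshold without knockout replicate 2 (limma, adjusted p = 0.0637), knockout replicate 3 (0.0598) or control replicate 2 (0.0817).

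Olig1, which shares the locus and in mice is needed for maturation and repair of oligodendrocytes, had 191, 195 and 169 TPM in the knockout libraries, by replicate number. The control libraries had 148, 123 and 142 TPM. The groups did not overlap, though knockout replicate 3 came close to control replicate 1. Olig1 averaged 185 ± 14.3 TPM in knockout and 138 ± 13.2 TPM in control cortex (SD, n = 3 each), a ratio of 1.34. Its log2 difference was 0.42 (95% interval 0.21 to 0.63), which did not pass over all genes (limma, adjusted p = 0.14, and 0.113 to 0.382 over the other settings). Within a library, Olig1 stood at 2.05, 1.87 and 1.78 times the Olig2 TPM in knockout and at 2.50, 2.09 and 2.12 times in control replicates 1, 2 and 3.

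Sox8, the less studied of the SOX factors here, which overlaps SOX10 in function in mice, had 26.5, 29.5 and 26.4 TPM in knockout libraries, against 29.8, 27.0 and 29.2 TPM in controls. The groups overlapped. The log2 difference was -0.06 with a 95% interval of -0.26 to 0.14 (limma, adjusted p = 0.9). The lower bound of the Olig2 interval, 0.46, lies above the upper bound of that of Sox8. An annotated antisense gene on the other strand, 2810468N07Rik, overlaps Sox8 over 329 bases, and no label says whether counting kept to a strand. It was at 22.3, 20.1 and 20.9 TPM in knockout and 19.5, 31.9 and 20.8 TPM in control cortex, and its part in the Sox8 value was not tested.

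Sox10 had 19.5, 18.8 and 15.6 TPM in knockout libraries, against 19.6, 18.3 and 24.8 TPM in controls. Replicates 1 and 2 of both groups sat together, with knockout replicate 3 below and control replicate 3 above them. The means were 17.96 ± 2.12 TPM in knockout and 20.9 ± 3.41 TPM in control cortex (SD, n = 3 each). The log2 difference was -0.20 with a 95% interval of -0.51 to 0.11 (limma, adjusted p = 0.743), and -0.08 without control replicate 3.

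Nkx2-2, a homeodomain factor that in mice promotes the exit from the precursor stage, varied most among the knockout brains. It had 4.92, 13.2 and 9.18 TPM in knockout libraries, against 4.47, 4.52 and 5.64 TPM in controls. Knockout replicate 1 fell within the control range, and the other two knockout libraries were above it. The coefficient of variation was 45.5% in knockout and 13.6% in control cortex. The means were 9.10 ± 4.14 TPM in knockout and 4.88 ± 0.662 TPM in control cortex (SD, n = 3 each). The log2 difference was 0.70 with a 95% interval of 0.06 to 1.34, but it did not pass over all genes (limma, adjusted p = 0.53). It was 0.41 without knockout replicate 2 and 1.04 without knockout replicate 1, and passed in 0 of the 14 other settings. The antisense transcript Nkx2-2os overlaps the gene over 10161 bases and was listed at 0.43, 0.34 and 0.12 TPM in knockout and 0.2, 0.53 and 0.27 TPM in control cortex. Another antisense gene, 6430503K07Rik, overlaps Nkx2-2 over 984 bases. It was listed at 0, 1.3 and 1.18 TPM in knockout and 0.47, 0 and 2.61 TPM in control replicates 1, 2 and 3. The part of either in the Nkx2-2 value was not tested.

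Myrf, the membrane-anchored factor that cleaves itself and turns on myelin genes, was low. It had 1.47, 1.77 and 1.26 TPM in knockout libraries, against 1.47, 1.81 and 1.81 TPM in controls. The groups overlapped, and replicate 1 of both groups had the same value. The log2 difference was -0.11 with a 95% interval of -0.58 to 0.36 (limma, adjusted p = 0.928). Myrf stood higher than 6.22% of the tested genes.

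Tcf7l2, the TCF/LEF factor that pairs with beta-catenin in Wnt signalling and marks newly formed oligodendrocytes, was at 2.24, 2.09 and 2.10 TPM in knockout cortex. Control replicates 1, 2 and 3 were at 1.16, 1.95 and 3.00 TPM, a spread that enclosed all 3 knockout values. The log2 difference was 0.09 with a 95% interval of -0.47 to 0.66 (limma, adjusted p = 0.953), and it changed sign to -0.13 without control replicate 1. Nkx6-2, a homeodomain factor of myelinating oligodendrocytes, was listed at 0.17, 0.16 and 0.22 TPM in knockout and at 0, 0.21 and 1.55 TPM in control replicates 1, 2 and 3. Control replicate 3 alone was above 1 TPM, and the other 5 libraries lay between 0 and 0.22 TPM. In a fit without a filter its log2 difference was -0.30, with a 95% interval of -1.05 to 0.45 (limma, adjusted p = 0.846). Nkx6-2 overlaps Inpp5a, a gene on the other strand at 34.9 to 45.1 TPM over the 6 libraries, over 277 bases.

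**Figure D2:**
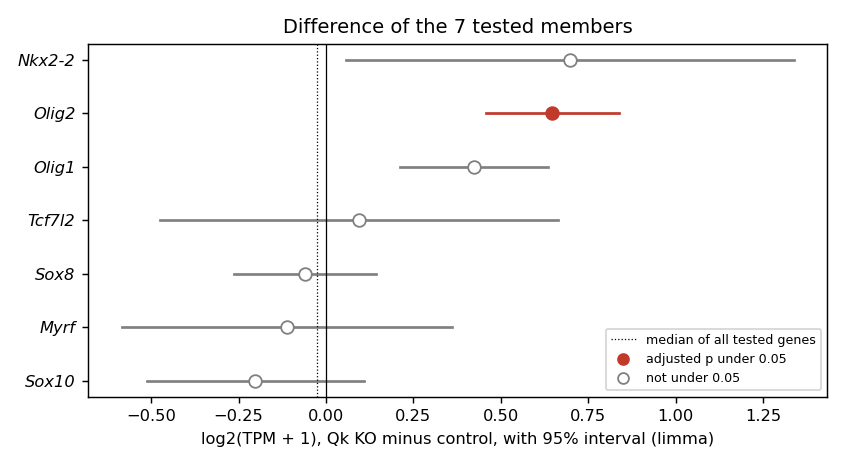
Difference of log2(TPM + 1), Qk knockout minus control (horizontal axis), for the 7 tested members, with 95% intervals from limma. The filled red point, Olig2 at 0.65, passed an adjusted p of 0.05, and the intervals of Tcf7l2, Sox8, Myrf and Sox10 include 0.

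The order of the 8 genes was the same by mean in both groups: Olig1, Olig2, Sox8, Sox10, Nkx2-2, Tcf7l2, Myrf and Nkx6-2. In knockout cortex no neighbours in that order overlapped over the 3 libraries. In control cortex Tcf7l2 overlapped Myrf, and Myrf overlapped Nkx6-2, so the order of those 3 is not set there. Olig1 and Olig2 stood higher than 92.7% and 84.0% of the tested genes. The TPM of all 8 genes added up to 340, 364 and 318 in knockout and to 264, 236 and 275 in control replicates 1, 2 and 3. Olig2 took 27.5%, 28.6% and 29.7% of that sum in knockout and 22.5%, 25.0% and 24.4% in control replicates 1, 2 and 3. Sox10 took 4.89% to 5.75% in knockout and 7.42% to 8.99% in control cortex. Olig1 and Olig2 made up most of the sum and were higher in knockout, which lowers the share of an unchanged gene. The Sox10 TPM overlapped between the groups.

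Ratios within a library do not depend on how that library was scaled. Sox10 was at 0.210, 0.180 and 0.165 times the Olig2 TPM in knockout and at 0.330, 0.311 and 0.369 times in control replicates 1, 2 and 3. Sox8 was at 0.279 to 0.284 times Olig2 in knockout and at 0.435 to 0.502 times in control cortex. Myrf was at 0.0133 to 0.0170 times Olig2 in knockout and at 0.0248 to 0.0307 times in control cortex. These 3 ratios, and that of Olig1 to Olig2, did not overlap between the groups, with Olig2, which itself rose, as the shared denominator. The ratios read between members other than Olig2 did overlap: Sox8 to Sox10 was 1.36 to 1.698 in knockout and 1.18 to 1.52 in control cortex. Myrf to Sox10 was 0.0753 to 0.0942 in knockout and 0.0731 to 0.0988 in control cortex. Nkx2-2 to Olig2 overlapped as well, at 0.0528 to 0.127 in knockout and 0.0753 to 0.0840 in control cortex. So did Tcf7l2 to Olig2, at 0.0201 to 0.0240 in knockout and 0.0195 to 0.0447 in control cortex, and Nkx6-2 to Olig2. No test was made of these ratios.

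**Figure D3:**
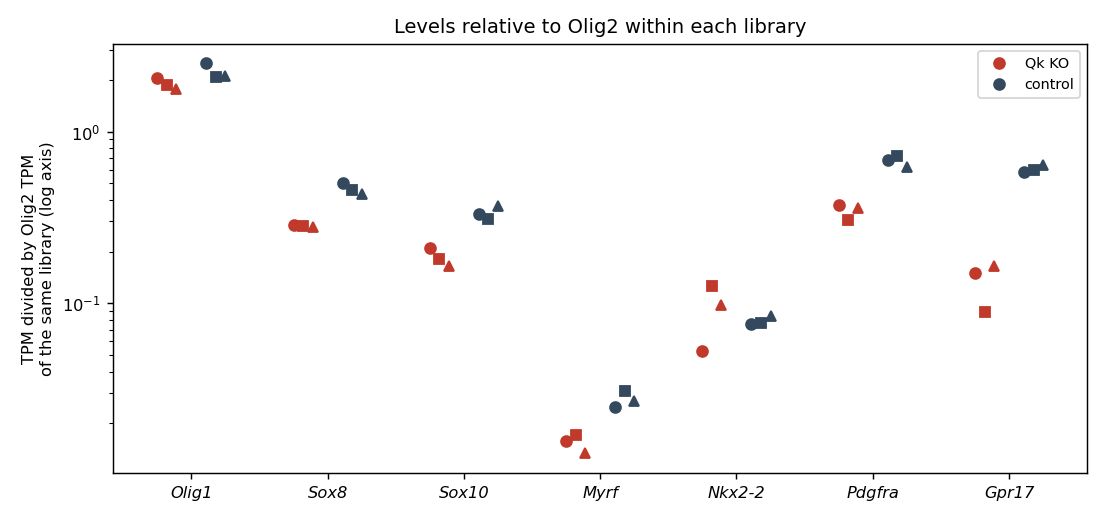
TPM of 5 members and of the stage genes Pdgfra and Gpr17, each divided by the Olig2 TPM of the same library (log vertical axis). Knockout libraries are red and on the left of each gene, control libraries dark and on the right, and marker shape gives replicates 1 (circle), 2 (square) and 3 (triangle). Every plotted gene except Nkx2-2 has knockout ratios below all 3 control ratios, with Gpr17 at 0.0893 to 0.164 against 0.580 to 0.640. Olig2, the shared denominator, was itself higher in knockout, which lowers the ratio of an unchanged gene.

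Genes of later stages of the lineage are the setting in which these factors act. Of 14 tested genes of newly formed oligodendrocytes, 3 fell and 0 rose, with a median log2 difference of -0.21. Among all tested genes 0.287% fell and 0.1% rose. An unadjusted p under 0.05 (limma) was found for 7 of the 14, against 8.72% of all tested genes. Gpr17, which encodes a membrane receptor switched on as precursors begin to mature, was at 14.0, 9.30 and 15.5 TPM in knockout and 34.4, 35.0 and 43.0 TPM in control replicates 1, 2 and 3 (limma, adjusted p = 0.00963). Bcas1 and Sirt2 also fell, by 1.03 and by 0.55 on the log2 scale (limma, adjusted p = 0.0103 and 0.0277). Without 1 library, Gpr17 missed the threshold once (control replicate 3, limma, adjusted p = 0.0547), Bcas1 once (control replicate 2, 0.0644), and Sirt2 5 times, passing only without control replicate 1. None of the 3 passed in a fit without the variance trend (limma, adjusted p = 0.0709 for Gpr17, 0.065 for Bcas1 and 0.119 for Sirt2), and Sirt2 missed the threshold with no filter (0.0639). The ratio of Gpr17 to Olig2, which itself rose, was 0.150, 0.0893 and 0.164 in knockout and 0.580, 0.594 and 0.640 in control replicates 1, 2 and 3.

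Of 16 tested genes among 20 that SOX10 and MYRF are known to act on, 2 fell and 0 rose, with a median of -0.04. Among the 16, 8 had an unadjusted p under 0.05 (limma), against 8.72% of all tested genes, and 8 had a positive difference. Mbp, which encodes myelin basic protein, was at 51.4 ± 1.85 TPM in knockout and 93.5 ± 1.504 TPM in control cortex (SD, n = 3 each; limma, adjusted p = 0.00153). Cnp, a myelin-associated phosphodiesterase gene, was at 53.3 ± 6.66 TPM in knockout and 90.9 ± 5.40 TPM in control cortex (SD, n = 3 each; limma, adjusted p = 0.0152). Cnp missed the threshold in 4 of 6 fits without 1 library, namely without knockout replicate 2 or 3 or control replicate 2 or 3 (limma, adjusted p = 0.069 to 0.0893), and without the variance trend (0.0869). The Mbp to Myrf ratio was 29.1 to 42.2 in knockout and 51.1 to 63.1 in control cortex. Members of that list with a positive difference included Trf, the transferrin gene, at 37.3 ± 3.12 TPM in knockout and 24.0 ± 2.17 TPM in control cortex (SD, n = 3 each; limma, adjusted p = 0.0528).

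Of 16 tested precursor genes, 0 passed by limma and 3 had an unadjusted p under 0.05, against 0.387% and 8.72% of all tested genes. The median of the 16 was -0.13, and 2 of them had a positive difference. C1ql1 had the largest difference of the 16, -0.73 (limma, adjusted p = 0.137). It was at 12.95, 17.89 and 12.4 TPM in knockout and 20.52, 26.05 and 26.75 TPM in control replicates 1, 2 and 3. Pdgfra, the growth factor receptor that defines precursors, was at 34.8, 31.8 and 34.0 TPM in knockout and 40.6, 42.4 and 41.7 TPM in control replicates 1, 2 and 3 (limma, adjusted p = 0.241). Its ratio to Olig2, which itself rose, was 0.305 to 0.373 in knockout and 0.621 to 0.719 in control cortex. The 2 precursor genes of highest TPM, Cacng4 and Sulf2, were not called: Cacng4 was at 206 ± 4.31 TPM in knockout and 196.5 ± 11.95 TPM in control cortex (SD, n = 3 each). Sulf2 was at 152 ± 5.27 TPM in knockout and 159 ± 1.91 TPM in control cortex (SD, n = 3 each).

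The co-regulators are other transcription and chromatin regulators that act for oligodendrocyte specification or differentiation. Of 23 tested, 0 passed by limma and 0 had an unadjusted p under 0.05 (median -0.01). Zfp488, a zinc finger factor of differentiating oligodendrocytes, was at 2.19, 1.22 and 2.22 TPM in knockout and 2.71, 2.89 and 3.04 TPM in control cortex (limma, adjusted p = 0.603). It was chosen after its values were seen. Of 10 regulators that hold the lineage back, 0 passed by limma and 1 had an unadjusted p under 0.05, against 8.72% of all tested genes. Their median was 0.07, and 8 of the 10 had a positive difference. Among the 8 was Hes1, at 15.54, 16.01 and 20.63 TPM in knockout and 15.5, 14.9 and 12.29 TPM in control replicates 1, 2 and 3 (limma, adjusted p = 0.646). The 1 with an unadjusted p under 0.05 was Hes5, a Notch target, which was lower in knockout. Hes5 was at 47.0, 61.6 and 48.0 TPM in knockout and 91.2, 78.1 and 107 TPM in control replicates 1, 2 and 3 (limma, adjusted p = 0.0591). It passed in 1 other setting, a filter at a mean of 5 TPM, and in 0 of 6 fits without 1 library (limma, adjusted p = 0.0531 to 0.195).

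Of 12 other members of the same gene families, 5 reached the filter and 0 passed by limma. An unadjusted p under 0.05 was found for 1 of the 5, against 8.72% of all tested genes. Sox9, the third SOXE gene and a factor of astrocytes and progenitors, was at 12.9 ± 1.26 TPM in knockout and 13.5 ± 2.06 TPM in control cortex (SD, n = 3 each). Tcf7, a relative of Tcf7l2, was at 7.94, 7.75 and 7.17 TPM in knockout and 6.71, 6.02 and 4.77 TPM in control replicates 1, 2 and 3 (limma, adjusted p = 0.56). Nkx2-9 and Nkx6-3 were listed at 0 in all 6 libraries, and Olig3 at 0.24 TPM or less. Of 24 Wnt pathway genes around Tcf7l2, 0 passed by limma and 0 had an unadjusted p under 0.05 (median 0.003). Ctnnb1, the beta-catenin gene, was at 464 ± 24.0 TPM in knockout and 457 ± 6.07 TPM in control cortex (SD, n = 3 each). Axin2, a common Wnt target chosen after its values were seen, was at 15.3 ± 1.29 TPM in knockout and 13.7 ± 1.25 TPM in control cortex (SD, n = 3 each).

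**Figure D4:**
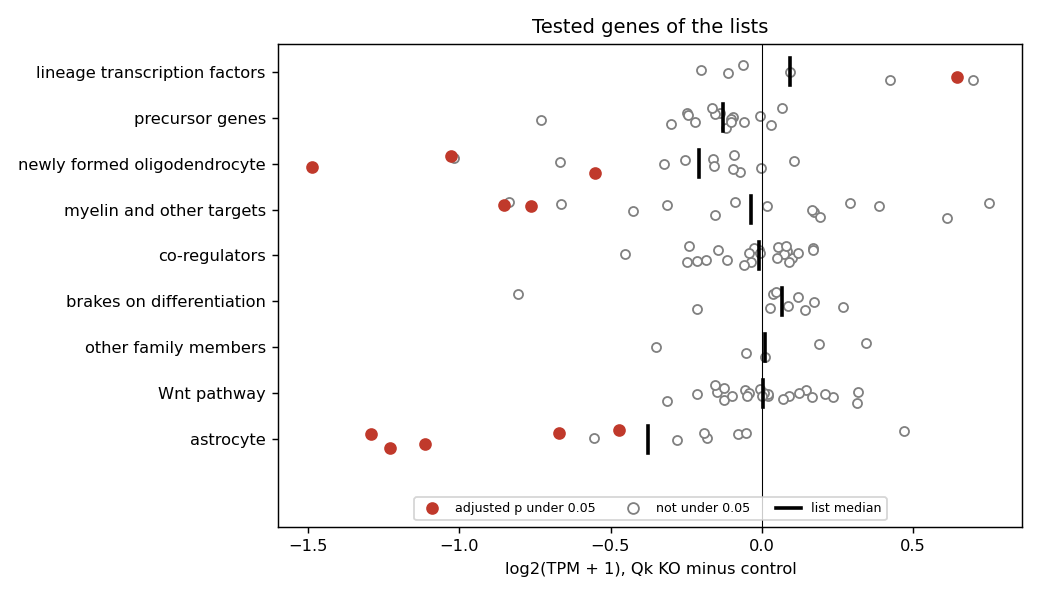
Difference of log2(TPM + 1), Qk knockout minus control (horizontal axis), for each tested gene of 9 lists, with vertical scatter for legibility only. Filled red points passed an adjusted p of 0.05 (limma) and black bars are list medians. Olig2 at 0.65 is the single filled point right of 0, and the 5 filled astrocyte points lie between -1.29 and -0.47.

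Markers of other cells were read beside the members. Olig2 and Sox8 are also active in some astrocytes, and the summed TPM of 12 astrocyte markers was 1010 to 1127 in knockout and 1412 to 1546 in control cortex. Of these 12, 5 fell (Slc1a3, Mlc1, S100b, Fgfr3 and Gja1) and 0 rose (median -0.38), with 3 calls left where no filter or no variance trend was used. An unadjusted p under 0.05 (limma) was found for 8 of the 12, against 8.72% of all tested genes. The 1 marker of the 12 with a positive difference was Aldh1l1, a folate enzyme gene of astrocytes. It had 78.7, 80.9 and 71.5 TPM in knockout libraries, against 50.4, 52.3 and 63.8 TPM in controls, without overlap (limma, adjusted p = 0.139). With a library left out, the calls of S100b, Mlc1 and Slc1a3 held in 6 of 6 fits, while Fgfr3 and Gja1 passed in 0 (limma, adjusted p = 0.0562 to 0.116 and 0.0948 to 0.188). The part of astrocytes in the levels of Olig2 and Sox8 was not tested. For Nkx2-2, the summed TPM of 12 ventral telencephalic and striatal markers was 299, 311 and 298 in knockout and 260, 309 and 351 in control replicates 1, 2 and 3. Knockout replicate 2, the library with the most Nkx2-2, had the highest of the knockout sums and lay within the control range. The part of ventral tissue in the Nkx2-2 level was not tested. The defining marker Nkx2-1 was at 2.42, 1.85 and 0.73 TPM in knockout and 1.59, 1.66 and 4.06 TPM in control replicates 1, 2 and 3.

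For Tcf7l2, which thalamic neurons also use, 11 thalamic markers summed to 318 to 348 TPM in knockout and 314 to 349 TPM in control cortex. Calb2 and Lhx2 held the largest parts, at means of 115 and 86.2 TPM in knockout and 119 and 89.0 TPM in control cortex. The defining marker Gbx2 was at 0.76 TPM or less. Lhx9 was at 2.12, 2.07 and 2.03 TPM in knockout and 4.21, 3.32 and 5.09 TPM in control replicates 1, 2 and 3 (limma, adjusted p = 0.214). Zic1 and Plekhg1 had higher means in knockout (limma, adjusted p = 0.556 and 0.519). The part of thalamic tissue in the Tcf7l2 level was not tested. For Sox10, which Schwann cells also use, 9 markers of Schwann cells and neural crest summed to 68.1 to 87.8 TPM in knockout and 61.7 to 78.8 TPM in control cortex. Most of that was Pou3f1, which neurons also express. Of the defining genes, Pmp2 was listed at 0 in all 6 libraries. None of the tested genes of the ventral, thalamic or Schwann cell lists passed by limma. An unadjusted p under 0.05 was found for 0 of 11, 3 of 10 and 1 of 4, against 8.72% of all tested genes. Summed microglia markers were 344 to 371 TPM in knockout and 312 to 335 TPM in control cortex, and endothelial and mural markers 539 to 621 TPM in knockout and 605 to 721 TPM in control cortex. Neuron markers summed to 4323 to 4594 TPM in knockout and 3936 to 4613 TPM in control cortex. No gene of these 3 lists passed by limma. An unadjusted p under 0.05 was found for 3 of 10, 1 of 10 and 1 of 12, against 8.72% of all tested genes. Choroid plexus and ependyma markers summed to 731 to 1082 TPM in knockout and 794 to 1587 TPM in control cortex, with 1 call, Foxj1, a factor of ciliated cells that rose to 16.4 ± 1.13 TPM in knockout, against 8.60 ± 1.48 TPM in control cortex (SD, n = 3 each; limma, adjusted p = 0.0428). Foxj1 missed the threshold in all 6 fits without 1 library (limma, adjusted p = 0.0518 to 0.159), with no filter (0.113) and without the variance trend (0.0888).

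Genes near the members were read for changes shared along the chromosome. Within 500 kb of the 8 genes, 123 other genes were tested and 0 passed by limma. Around Olig2, 18 tested genes lay in that window, and the groups did not overlap for 2 of them (against 14.2% of all tested genes), Olig1 and Dnajc28, Olig1 being higher and Dnajc28 lower in knockout. Around Myrf, 21 genes were tested, and the groups did not overlap for 4 of them, 2 in each direction. Fads1, a fatty acid desaturase gene 11395 bases from Myrf, and Fads2 were lower in every knockout library than in any control (limma, adjusted p = 0.363 and 0.253). Lrrc10b and Ppp1r32 were higher in every knockout library than in any control (limma, adjusted p = 0.385 and 0.556). The groups did not overlap for 6 of 35 genes around Sox8, 6 of 29 around Sox10 and 3 of 18 around Olig1. Around Nkx2-2, Nkx6-2 and Tcf7l2 there were 0 such genes. Lgals1, near Sox10, had the lowest adjusted p of the 123 (limma, adjusted p = 0.0733). It was at 86.3, 114.5 and 103 TPM in knockout and 62.7, 71.7 and 60.3 TPM in control replicates 1, 2 and 3.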

How the data were processed

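RNA of 6 cortices (3 Qk knockout, 3 control, grouped by sample titles) was selected for polyadenylated RNA, built into libraries with the Ion Total RNA-Seq Kit and sequenced on the Ion Proton, per the labels' protocols. STAR 2.4.1d, RSEM 1.3.0, mm10 and GRCm38.p4 are named in the submitters' processing notes; no source used here gives their order, annotation or strand setting. The authors deposited TPM per gene and library, each library with the same sum, so depth is unknown and a rise of some genes lowers others. Each library is labelled as its own brain, and p-values rest on the spread among them.

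From the TPM, genes averaging 1 TPM or more were fitted as log2(TPM + 1) with limma 3.58.1 in R 4.3.3 (eBayes with trend, group as the only term). All tests were two-sided, and adjustment was by Benjamini-Hochberg over all 14994 genes, with a threshold of 0.05. The fit was also run on simulated normal values drawn with its own variances. That run checks the code and cannot show how well the model suits these data. Alternatives were pseudocounts of 0.1 and 0.5, no filter, a mean of 5 TPM, scaling by trimmed means or median of ratios, no trend, a replicate block and each library left out. No libraries were duplicates (50 to 75 identical values per pair).

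The members and the 15 other gene lists were chosen with earlier results of these data known. Named were all members, Qk, the genes called in each list (up to 4) or else the 2 of highest TPM, overlapping genes that had values, and neighbours within 500 kb that were called. Other genes named were chosen after their values were seen. Among them were Trf, Pdgfra, C1ql1, Zfp488, Hes1, Hes5, Axin2, Gja1, Aldh1l1, Lhx9, Zic1, Plekhg1, Fads1, Fads2, Lrrc10b, Ppp1r32, Lgals1, Dnajc28 and markers listed at or near 0. Coordinates and 3′ UTRs are from GENCODE M21 on GRCm38, matched by Entrez number or symbol for 97.3% of tested genes, and promoters are from RefSeq on GRCm38.p6, which differs from p4 in patches only.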

Additional observations from a re-analysis of the deposited data

How the results depend on the processing

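Olig2 kept a positive difference in all 14 other settings and passed in 9 of them. It missed the threshold without the variance trend (0.65, limma, adjusted p = 0.0869) and with the replicate block (0.65, limma, adjusted p = 0.0637), and ran from 0.60 to 0.71 when a library was left out. The number of members called was 0 without the trend and with the block, and 0 to 1 without 1 library. Of the other 6 tested members, none passed in any setting tried; Myrf and Tcf7l2 were not tested at a mean of 5 TPM. Genes called were 37 with no filter (9 rose, 28 fell), 28 without the trend (8 and 20), 38 with the replicate block (8 rose), and 27 to 59 without 1 library (6 to 21 rose, 20 to 38 fell). Among named genes, the block also lost the calls of Sirt2 (limma, adjusted p = 0.0612), Cnp (0.0655), Fgfr3 (0.0655), Foxj1 (0.117) and Gja1. Same-numbered libraries of the groups deviated together by a correlation of 0.013 to 0.035, against -0.042 to 0.01 for other numbers. Each library thus went best with its own number, though weakly. No label pairs the brains, so the main fit had no block, and whether the numbers mark pairs is not known. Among the genes whose values without each library were tabulated, these changed sign: Tcf7l2 ran from -0.13 to 0.32, Hdac3 -0.005 to 0.10, Lingo1 -0.076 to 0.10, Sox9 -0.16 to 0.045, Ctnnb1 -0.011 to 0.062, Calb2 -0.14 to 0.05, Lhx2 -0.14 to 0.01, Ppp1r1b -0.18 to 0.06, Dlx1 -0.10 to 0.02, Ngfr -0.43 to 0.18, Cldn5 -0.18 to 0.068 and Tubb3 -0.12 to 0.069. The causes were not tested. With 3 brains per group and no read numbers, the counting error of the low members could not be given.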
